A study of Mus musculus with 8 samples.

Results

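The genes of the cytosolic ribosomal proteins were taken as the rows whose symbol is Rpl or Rps followed by a protein number, with paralog suffixes allowed, together with Rplp0 to Rplp2 and Rpsa. S6 kinase genes, mitochondrial ribosomal proteins and pseudogene rows do not match. Some cytosolic ribosomal protein genes do not match either, Fau, Rack1, Rpl36al and Rps3a1 among them. The rule found 83 of the 17518 listed genes, 52 for the large (60S) and 31 for the small (40S) subunit. Of these, 80 passed a filter on low counts and were tested. Rpl10l, Rpl32l and Rpl39l held between 0 and 6 counts in any library and were not.

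The study used oligo(dT)-selected RNA of MH-S, a line grown from mouse alveolar macrophages, phagocytes that live in the air sacs of the lung. One set of samples received lipopolysaccharide (LPS, a bacterial outer membrane component that activates macrophages) at 100 ng/mL together with RCMNs, the nanoparticles of the study, at 1 µg/mL (LPS+RCMNs, n = 3). The other groups received LPS alone, with no dose stated for it (LPS, n = 2), or phosphate-buffered saline (control, n = 3). Nothing in the labels tells whether the replicates came from separate cultures. The p-values therefore reflect sample-to-sample spread that could be purely technical.

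The cytosolic ribosome reads messenger RNA into protein. Its small subunit decodes the message, and its large subunit joins the amino acids. Ribosomal protein messages are among the most abundant in dividing cells, are short, and mostly begin with a run of pyrimidines, the 5′ terminal oligopyrimidine (TOP) motif, through which Larp1 and the mTOR kinase complex control their translation. In macrophages, activation by LPS is known to engage this pathway. Most of these genes also have processed pseudogenes, so levels of single members depend on how the counting split reads among copies and are uncertain in that respect.

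Promoter sequences show the region from which these messages start. The RefSeq promoter table (GRCm38.p6) held 75 promoters for 63 of the 83 genes, each spanning 250 bases before to 50 after an annotated start. A C followed by at least 4 pyrimidines (C or T), on the gene's strand and starting within 10 bases of the annotated start, was present in 56.0% of these promoters, against 30.7% of all 32851 promoters in the table; of the 12153 promoters of other tested genes, 3894 held it. Such a C lay exactly at the annotated start in 18.7% of the ribosomal protein promoters, against 2.51% of all and 2.14% of those of other tested genes. The base before that C was not considered, so the run of pyrimidines can begin further upstream. The letters CGGAAG, searched on both strands, were in 58.7%, against 16.9% of all promoters and 30.7% of those of other tested genes. The following sequences show 40 bases before and 20 after the annotated start, 5′ to 3′. Capitals mark the pyrimidine run from the counted C nearest the annotated start onward, and pyrimidines before that C stay in lower case. Rpl35 (chr2:39005112-39005171, minus strand), Rps6 (chr4:86857348-86857407, minus), Rps18 (chr17:33955646-33955705, minus), Rps10 (chr17:27635225-27635284, minus) and Rps27 (chr3:90213629-90213688, minus) are shown for such a C at the annotated start. In each of them the base before that C is also a pyrimidine. Rpl41 (chr10:128549149-128549208, minus) and Rpl7l1 (chr17:46782637-46782696, minus) are shown because they held the highest and the lowest fold changes below and had no such run starting within 10 bases of the annotated start.
Rpl35: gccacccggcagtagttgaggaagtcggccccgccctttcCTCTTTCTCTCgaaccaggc
Rps6: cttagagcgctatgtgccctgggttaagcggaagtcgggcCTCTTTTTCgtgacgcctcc
Rps18: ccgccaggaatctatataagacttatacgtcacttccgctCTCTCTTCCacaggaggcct
Rps10: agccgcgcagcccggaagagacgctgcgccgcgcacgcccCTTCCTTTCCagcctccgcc
Rps27: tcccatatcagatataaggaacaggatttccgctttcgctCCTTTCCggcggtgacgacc
Rpl41: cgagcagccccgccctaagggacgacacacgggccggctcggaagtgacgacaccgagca
Rpl7l1: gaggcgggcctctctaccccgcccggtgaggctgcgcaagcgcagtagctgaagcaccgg

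Libraries held 18.6 to 21.2 M (mega) counts. All 11 macrophage markers were listed, with a summed level of 6948 to 8628 CPM (counts per M counts, after scaling) in LPS+RCMNs, 6426 and 7636 CPM in LPS and 5377 to 6370 CPM in control libraries. The 9 listed alveolar macrophage markers (Marco and Siglecf among them) were low throughout, with a summed level of 69.7 to 104 CPM in LPS+RCMNs, 103 and 108 CPM in LPS and 18.7 to 27.4 CPM in control libraries. In the control group replicate 1, and in the LPS+RCMNs group replicate 2, differed from the other libraries: the chi-square per degree of freedom between replicates was 35.5 to 47.4 for pairs with either of them, 1.93 and 2.82 for the remaining control and LPS+RCMNs pairs and 12.5 for the LPS pair. The 9 listed erythroid markers, hemoglobin genes included, had a summed level of 0.911 to 34.4 CPM in LPS+RCMNs, 4359 and 5624 CPM in LPS and 1.21 to 21.1 CPM in control libraries. The 8 listed neutrophil markers summed to 4.12 to 4.85 CPM in LPS+RCMNs, 18.4 and 38.7 CPM in LPS and 2.3 to 4.55 CPM in control libraries, and lymphocyte, epithelial and fibroblast lists to at most 1.39 CPM in any library. The part of these markers in the results below was not tested.

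Together the 83 genes took 4.41%, 4.65% and 4.53% of all counts in the LPS+RCMNs libraries, 11.9% and 12.7% in the LPS libraries and 5.39%, 5.22% and 5.28% in the control libraries. Counting error is small beside these differences: the 95% Wilson interval, which covers counting error only, of the first LPS+RCMNs library was 4.397% to 4.415%. The groups did not overlap, and both LPS libraries were above the other 6. On TPM, which corrects for length and sums to the same total in every library, the share was 12.7% to 13.1% in LPS+RCMNs, 24.9% and 26.4% in LPS and 15.1% to 15.2% in control libraries. In a bulk sample, a larger share of one kind of message and a smaller amount of all others cannot be told apart, and fewer cells of a type cannot be told from less RNA per cell.

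**Figure D1:**
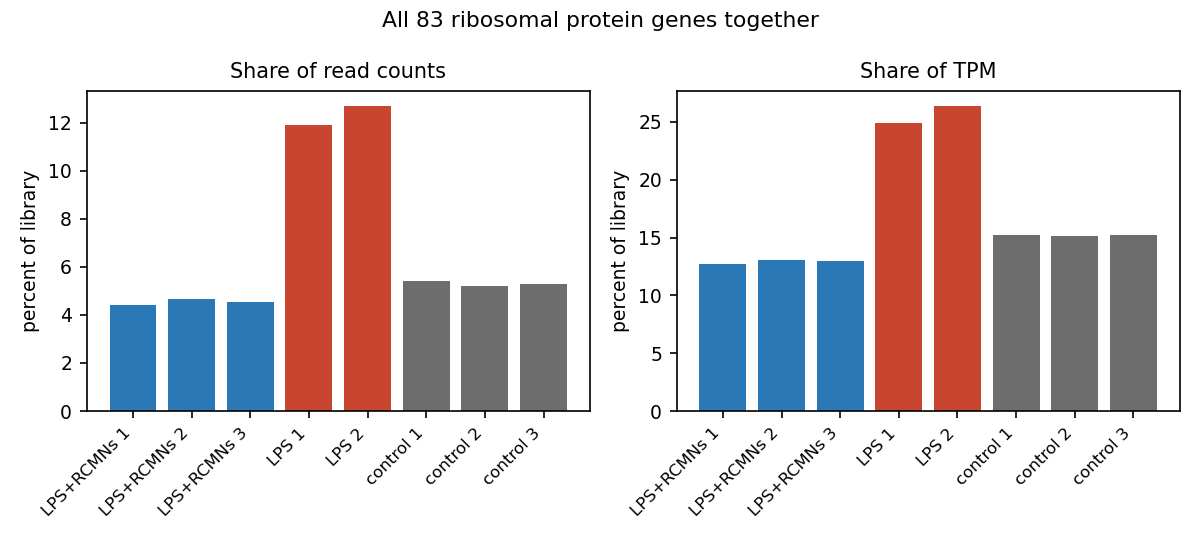
Share of read counts (left) and of TPM (right) taken by the 83 ribosomal protein genes, in percent of each library, with 1 bar per library. The LPS bars stand at 11.9% and 12.7% of counts, above 4.41% to 4.65% in LPS+RCMNs and 5.22% to 5.39% in control libraries.

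The subunits moved together. Counts for 60S genes over counts for 40S genes came to 1.59, 1.52 and 1.54 in LPS+RCMNs, 1.45 and 1.46 in LPS and 1.53, 1.55 and 1.53 in control libraries. The LPS ratios were the lowest of the 8. The median tested gene had 739, 835 and 801 FPKM (fragments per kb of gene and M reads) in LPS+RCMNs libraries, 2103 and 2248 FPKM in LPS libraries and 924, 893 and 924 FPKM in control libraries. The order of the genes by FPKM was nearly fixed, with a rank correlation over the 80 genes of 0.94 to 1.0 between any pair of libraries, given as a description since libraries share gene lengths and counting.

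**Figure D2:**
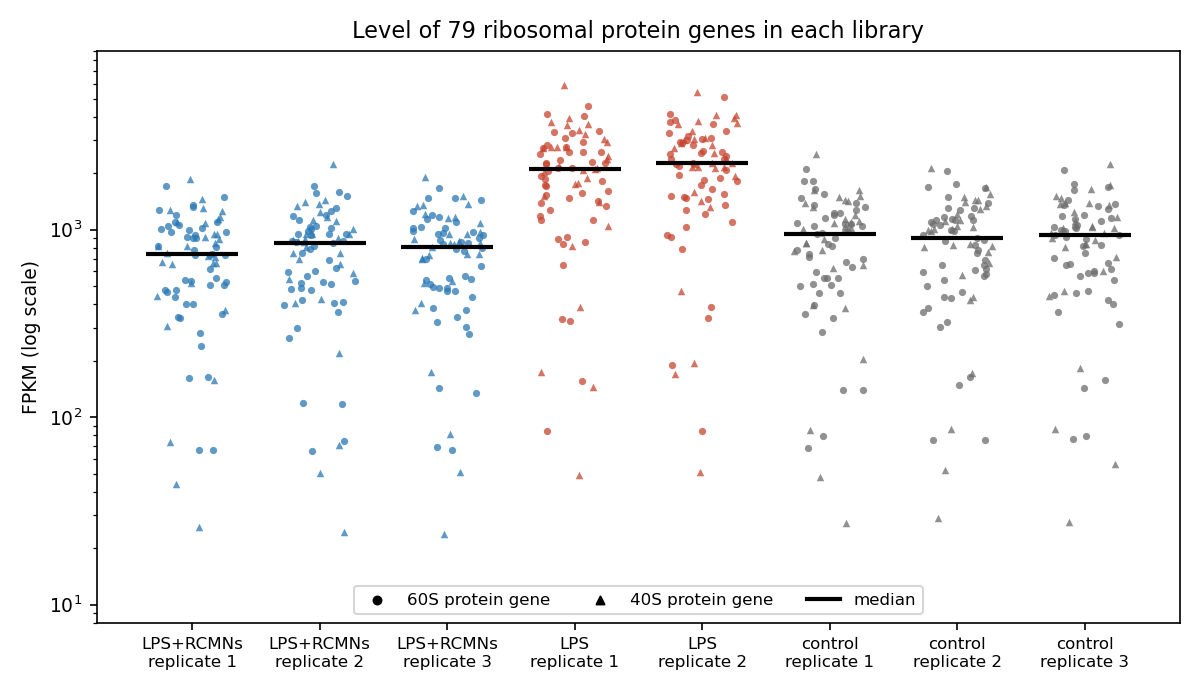
FPKM (log scale) of the 79 tested ribosomal protein genes other than Rpl3l in each library; points are genes, circles 60S and triangles 40S, and the line is the median. The medians of both LPS libraries lie above those of the other 6, while the standard deviation of log2 FPKM over genes (second paralogs left out) is 1.14 to 1.21 in every library.

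LPS cells were first compared with control cells, to see how the levels differed between these groups. All 80 tested genes rose in LPS cells (edgeR's quasi-likelihood test with Benjamini-Hochberg adjustment), where 31.4% of all tested genes were called higher, 32.1% lower and 63.4% in either direction. The median log2 fold change was 1.75, with a range from 0.69 for Rpl7l1 to 2.19 for Rpl41, against a median of -0.04 over all 11911 tested genes. The 49 tested 60S genes and the 31 40S genes had the same median, 1.75. Both LPS libraries were above the other 6 in CPM for all 80 genes, as they were for 32.2% of all tested genes. The size of the rise depended on the scale: with limma on log2(FPKM + 1) the median was 1.26 against -0.33 over all genes, and on log2(TPM + 1) it was 0.76 against -0.79, so the gap to all genes was 1.59 and 1.54, against 1.79 for CPM. Removal from every library of a smooth surface on gene length and mean level, fitted on the other genes, lowered the gap to -0.01. Values after this removal are given for many of the genes named.

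The highest and lowest fold changes belonged to genes of different kinds. Rpl41 (chromosome 10), which encodes the smallest protein of the ribosome, had 777, 931 and 843 FPKM in LPS+RCMNs, 2604 and 3154 FPKM in LPS and 842, 871 and 940 FPKM in control libraries. Its log2 fold change, LPS over control, was 2.19 ± 0.11 (SE, edgeR adjusted p = 1.11e-06). Rpl36, a 60S protein (chromosome 17), had 1614 and 1736 FPKM in LPS and 508, 500 and 538 FPKM in control libraries, a log2 fold change of 2.19 ± 0.10 (SE). In both genes the LPS libraries were above the others and did not overlap them. Removal of the length and level surface left -0.02 for Rpl41 and -0.04 for Rpl36, neither of them called. Rpl3l, the muscle form of Rpl3, also ranked high with a log2 fold change of 2.15 ± 0.60 (SE, adjusted p = 0.011), but it rested on 12 and 11 counts in LPS and 1, 3 and 6 counts in control libraries. At the other end stood Rpl7l1, a relative of Rpl7, with 84.4 and 84.7 FPKM in LPS and 68.3, 75.4 and 76.5 FPKM in control libraries. Its log2 fold change of 0.69 ± 0.10 (SE, adjusted p = 0.000257) became -0.30 on log2(TPM + 1) with limma (adjusted p = 0.0109). Rpl5 (log2 fold change 1.28 ± 0.10, SE) and Rpl4 (1.29 ± 0.08, SE), both long as ribosomal messages go, were next lowest, and Rpl4 stood at 0.05 and was not called with that surface removed.

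The stalk recruits elongation factors to the large subunit. Rplp0, its anchor (gene ID 11837, chromosome 5, 115559467 to 115563729), had 1348, 1561 and 1467 FPKM in LPS+RCMNs, 4063 and 3741 FPKM in LPS and 1823, 1747 and 1749 FPKM in control libraries. Rplp1, which binds it, had 899, 1036 and 971 FPKM in LPS+RCMNs, 2930 and 3374 FPKM in LPS and 1193, 1123 and 1023 FPKM in control libraries. The log2 fold changes, LPS over control, were 1.63 ± 0.09 for Rplp0, 1.99 ± 0.10 for Rplp1 and 1.74 ± 0.11 for Rplp2 (SE). After removal of that surface they were 0.32 for Rplp0 (called higher), -0.21 for Rplp1 (not called) and -0.45 for Rplp2 (called lower). For both Rplp0 and Rplp1 the LPS libraries were the highest, and in Rplp1 the LPS+RCMNs libraries overlapped the control libraries.

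Several members have roles outside the ribosome. Rpl5 and Rpl11 together bind Mdm2 when ribosome assembly fails. Rpl11 had 467, 520 and 486 FPKM in LPS+RCMNs, 1379 and 1519 FPKM in LPS and 554, 579 and 600 FPKM in control libraries, and its log2 fold change, LPS over control, was 1.80 ± 0.09 (SE). Rpl5 had 996, 823 and 944 FPKM in LPS+RCMNs, 1860 and 1955 FPKM in LPS and 1067, 1128 and 1059 FPKM in control libraries. Rpl13a, which in human monocytes joins a complex that silences inflammatory messages, had 909, 869 and 862 FPKM in LPS+RCMNs, 2255 and 2229 FPKM in LPS and 1052, 982 and 992 FPKM in control libraries, a log2 fold change of 1.64 ± 0.08 (SE). Rpl10, which is added late in 60S assembly, rose by 1.56 ± 0.09 (SE) on the log2 scale. Both LPS libraries were the highest for each of these genes. For LPS over control, removal of the surface gave 0.39 for Rpl11 (called higher), 0.14 for Rpl13a and -0.14 for Rpl5 (not called), and -0.22 for Rpl10 (called lower, adjusted p = 0.049; -0.19 and not called with the surface fitted on all genes).

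Among the 40S proteins, Rps2 had the highest FPKM of the group, with 1854, 2232 and 1901 in LPS+RCMNs, 5927 and 5435 in LPS and 2540, 2136 and 2239 in control libraries. Rps19, which is mutated in human Diamond-Blackfan anaemia, had 892, 948 and 887 FPKM in LPS+RCMNs, 2920 and 3083 FPKM in LPS and 1021, 1027 and 1024 FPKM in control libraries, a log2 fold change of 2.04 ± 0.08 (SE) between LPS and control. Rps3, also known to bind a subunit of NF-κB, rose by 1.66 ± 0.09, Rpsa, known also as the laminin receptor, by 1.63 ± 0.08, and Rps27a, made as a fusion with ubiquitin, by 1.74 ± 0.08 (SE, log2). Rps6, the 40S protein that S6 kinases phosphorylate, was listed at only 26.0, 24.4 and 23.7 FPKM in LPS+RCMNs, 49.3 and 50.9 FPKM in LPS and 27.4, 28.8 and 27.7 FPKM in control libraries. Its log2 fold change was 1.33 ± 0.09 (SE), among the lowest. Rps29 differed most between the LPS libraries, with 823 FPKM in replicate 1 and 1582 FPKM in replicate 2, so its log2 fold change of 1.97 had an SE of 0.23. Once the surface was removed, Rps3 (0.79), Rpsa (0.68) and Rps6 (0.59) were called higher, and Rps2 (0.17), Rps19 (0.02), Rps27a (-0.11) and Rps29 (-0.28) were not called.

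Low FPKM in a few genes goes with the length by which the authors divided. The length implied by the counts and FPKM exceeded 1.5 times the shortest coding transcript in GENCODE M21 for 13 of the 83 genes. For Rps15a the implied length was 5087 bases, where the GENCODE coding transcripts range from 640 to 5179 bases, and its level was 70.6 to 81.6 FPKM in LPS+RCMNs, 173 and 195 FPKM in LPS and 85.6 to 86.9 FPKM in control libraries. Rpl31 (implied length 1008 bases, shortest GENCODE transcript 356) had 118 to 164 FPKM in LPS+RCMNs, 335 and 386 FPKM in LPS and 140 to 163 FPKM in control libraries. The row of its pseudogene Rpl31-ps12, which is no member, had 1019 to 1102 FPKM in LPS+RCMNs, 3406 and 3526 FPKM in LPS and 1229 to 1334 FPKM in control libraries. Levels of such genes are therefore not comparable with those of the others, while their fold changes between groups use the same length throughout. Values with the length and level surface removed do depend on the implied length, and those of such genes are uncertain in that respect.

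The rise went with gene length, in ribosomal protein genes as in all genes. Across the 80 tested genes the rank correlation of the log2 fold change, LPS over control, with implied length was -0.53, and across all 11911 genes it was -0.58. With the length of the shortest GENCODE coding transcript it was weaker over the 80 genes, at -0.38. Genes are not independent replicates, and these numbers are descriptions. The 27 shortest genes had a median of 1.84, the 26 of middle length 1.75 and the 27 longest 1.64. Of 213 other genes of like length (400 to 1808 bases) and like level (mean log2 CPM of 7.54 to 10.4), 202 were called higher and 1 lower, with a median of 1.13, against 1.75 for the 53 ribosomal protein genes inside the same window. The match is loose, since the other genes had a median length of 1300 bases and the ribosomal protein genes one of 630.

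**Figure D3:**
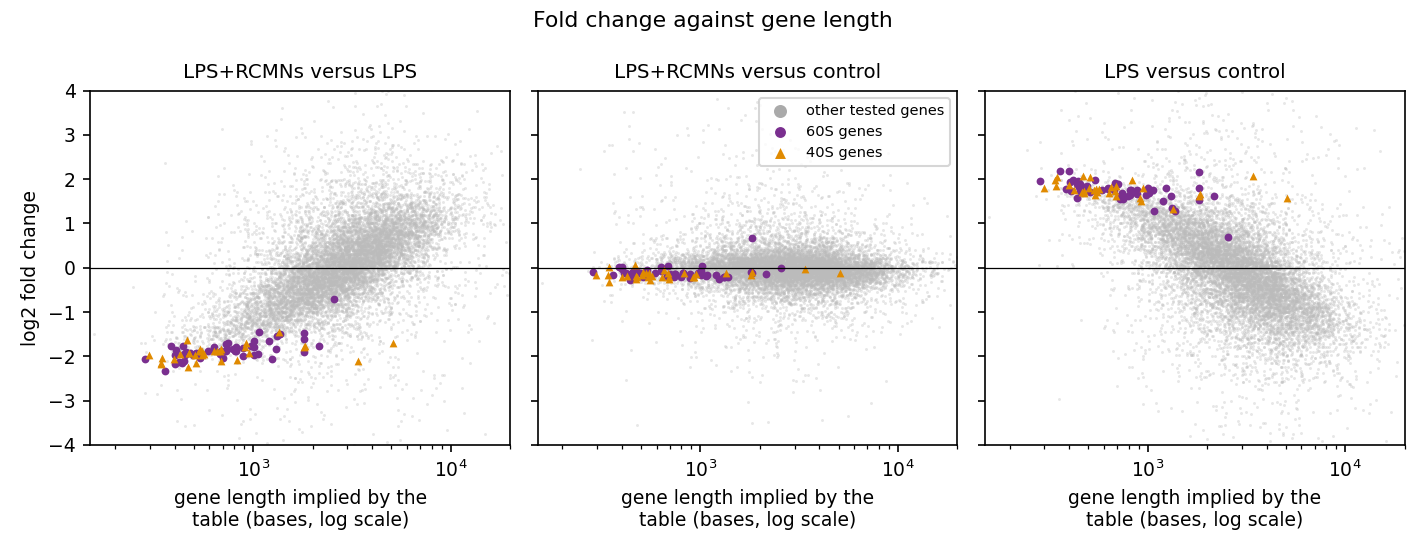
Log2 fold change (y axis) against the gene length implied by the deposited table (x axis, bases, log scale) in the 3 comparisons; grey points are other tested genes, purple circles 60S and orange triangles 40S genes. Ribosomal protein genes lie at the short end of a cloud that slopes down for LPS versus control (rank correlation -0.58) and up for LPS+RCMNs versus LPS (0.59); a few points beyond 4 log2 units are not shown.

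Removing the length trend changed the picture. After a smooth fit on length was taken out of every library, 55 of the 80 genes were called higher in LPS and 0 lower, against 24.9% and 20.9% of all tested genes, with a median log2 fold change of 0.42 against 0.01 over all genes. With a surface on length and level removed instead, fitted on genes other than the ribosomal protein genes, 17 were called higher and 18 lower, against 21.1% and 21.7% of all tested genes, and the median was -0.04. The 17 called higher had implied lengths of 830 to 5087 bases and the 18 called lower had 285 to 746 bases. The error of the fitted surface did not enter these calls. Among those higher were Rps20 (log2 fold change 2.10), Rps15a (1.89) and Rpl22 (1.17), and among those lower was Rps27 (-0.63). The surface uses the implied length, which for Rps15a (5087 bases) and Rpl22 exceeds that of their shortest GENCODE coding transcript. Rps20 was also among the 27 ribosomal protein genes of longest implied length. The values of Rps20, Rps15a and Rpl22 with the surface removed depend on that length and are uncertain in that respect.

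**Figure D4:**
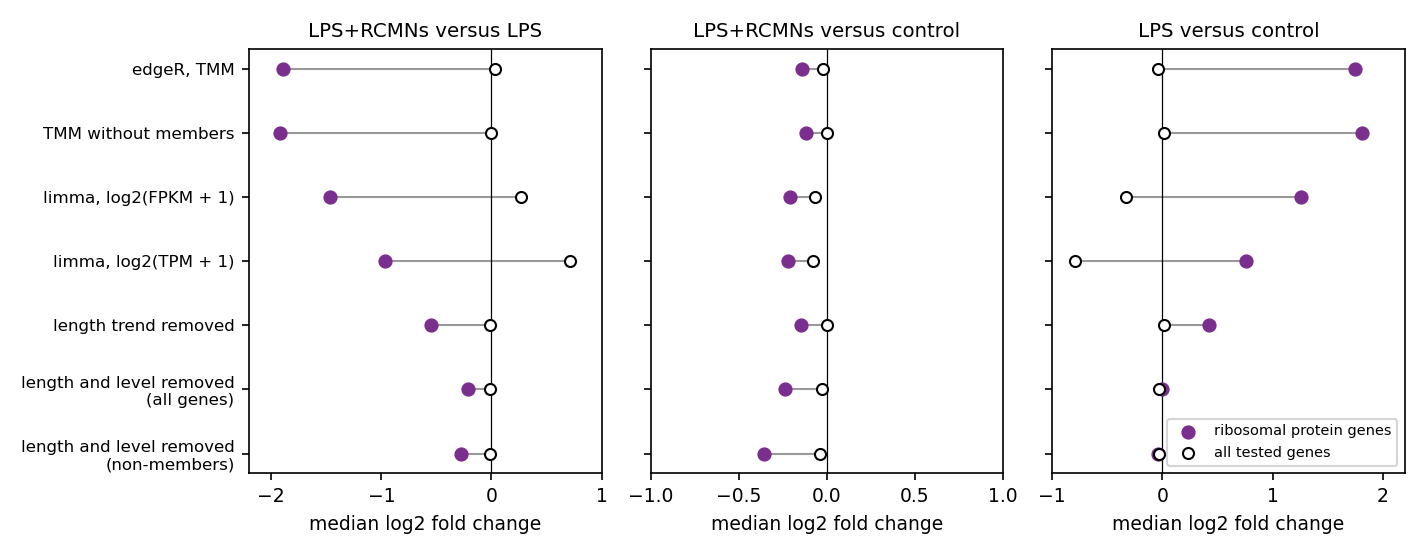
Median log2 fold change of the tested ribosomal protein genes (filled purple) and of all tested genes (open) under 7 ways of processing, for the 3 comparisons. In LPS versus control the gap between the medians shrinks from 1.79 in the edgeR fit to -0.01 with length and level removed; in LPS+RCMNs versus control the ribosomal protein genes stay below all genes throughout.

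LPS+RCMNs cells were next compared with LPS cells, whose LPS dose is not stated, to see how the levels differed between these groups. All 80 tested genes fell in LPS+RCMNs cells, where 29.5% of all tested genes were called lower, 29.8% higher and 59.3% in either direction. The median log2 fold change was -1.89, from -2.34 for Rpl36 to -0.70 for Rpl7l1, against 0.03 over all genes. The 40S median was -1.93 and the 60S median -1.87. This comparison uses the same 2 LPS libraries as the one before, so its values are not independent of it. Rpl36 had 399, 486 and 435 FPKM in LPS+RCMNs and 1614 and 1736 FPKM in LPS libraries, a log2 fold change of -2.34 ± 0.10 (SE, edgeR adjusted p = 7.8e-07). Rps12, a 40S protein, had 910, 951 and 953 FPKM in LPS+RCMNs and 3062 and 3657 FPKM in LPS libraries, a log2 fold change of -2.25 ± 0.09 (SE). No library of one group reached those of the other in either gene. After removal of the length and level surface, 44 of the 80 genes were called lower and 0 higher, with a median of -0.28, where 20.1% of all tested genes were called lower.

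LPS+RCMNs cells were last compared with control cells. Of the 80 genes, 0 were called by edgeR, where 7.56% of all tested genes were called, 4.33% higher and 3.23% lower. At an unadjusted p under 0.05, 26 of the 80 were lower and 0 higher, where 11.5% of all tested genes were lower and 11.4% higher. The fitted log2 fold change was below 0 for 72 of the 80, against 53.4% of all tested genes, with a median of -0.14. For 42 genes all 3 LPS+RCMNs libraries were below all 3 control libraries in CPM, where 15.7% of all tested genes had that pattern, and for 0 genes were they all above (14.1%). Rps21 and Rpl22l1 were among the lowest values. Rps21, a 40S protein, had 445, 547 and 534 FPKM in LPS+RCMNs and 622, 663 and 717 FPKM in control libraries, with a log2 fold change of -0.32 ± 0.12 (SE, adjusted p = 0.144). The groups did not overlap in Rps21, which did not pass the threshold. At the upper end, Rpl23 had 161, 119 and 143 FPKM in LPS+RCMNs and 140, 149 and 143 FPKM in control libraries, with overlap, and a log2 fold change of 0.04 ± 0.11 (SE).

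The count of 0 depended on the test and on the libraries that stood apart. DESeq2 called 7 of the 80 genes lower (5.07% of all tested genes were called lower) and limma on log2(FPKM + 1) called 7 (4.74%). Without control replicate 1 and LPS+RCMNs replicate 2, edgeR called 18 lower and 0 higher, where 10.6% of all tested genes were called lower. With the length trend alone removed, 0 were called, where 7.51% of all tested genes were. With the length and level surface fitted on all genes removed, 23 were called lower, where 3.74% of all tested genes were, with a median of -0.24. With that surface fitted on other genes, 55 were called lower, where 4.29% of all tested genes were, with a median of -0.36. In each of these fits 0 of the 80 genes were called higher. Other genes inside the window of like length and level had a median length of 1300 bases and a median log2 CPM of 8.16. The ribosomal protein genes inside it had 630 bases and 9.43. The surface fitted on other genes is therefore less sure where the ribosomal protein genes lie, and its error did not enter the calls.

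Of 7 paralog pairs, 6 had a row for both members, and 3 of these held more than a few counts for both. Rpl22l1 exceeded Rpl22: its FPKM was 513%, 597% and 492% of that of Rpl22 in LPS+RCMNs, 730% and 670% in LPS and 577%, 577% and 590% in control libraries. In mouse cells Rpl22 protein is known to repress Rpl22l1, and here Rpl22 was counted over an implied length of 2154 bases, where its shortest GENCODE transcript has 474. Rpl7l1 had 6.55%, 7.18% and 6.52% of the FPKM of Rpl7 in LPS+RCMNs, 3.24% and 2.99% in LPS and 5.57%, 6.35% and 6.47% in control libraries. Both LPS libraries were below the rest. Rps27l, which Trp53 induces, had 24.1%, 33.3% and 25.3% of Rps27 in LPS+RCMNs, 22.3% and 21.8% in LPS and 26.0%, 22.7% and 21.7% in control libraries, with overlap between LPS and control. An exact two-sided permutation test of the log2 ratios over samples cannot go below p = 0.1 for 3 against 3 libraries or 0.2 for 2 against 3, and the smallest adjusted p over 18 tests was 0.257. The muscle form Rpl3l and the testis forms Rpl10l and Rpl39l stayed at or under 0.0217% of their partners.

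**Figure D5:**
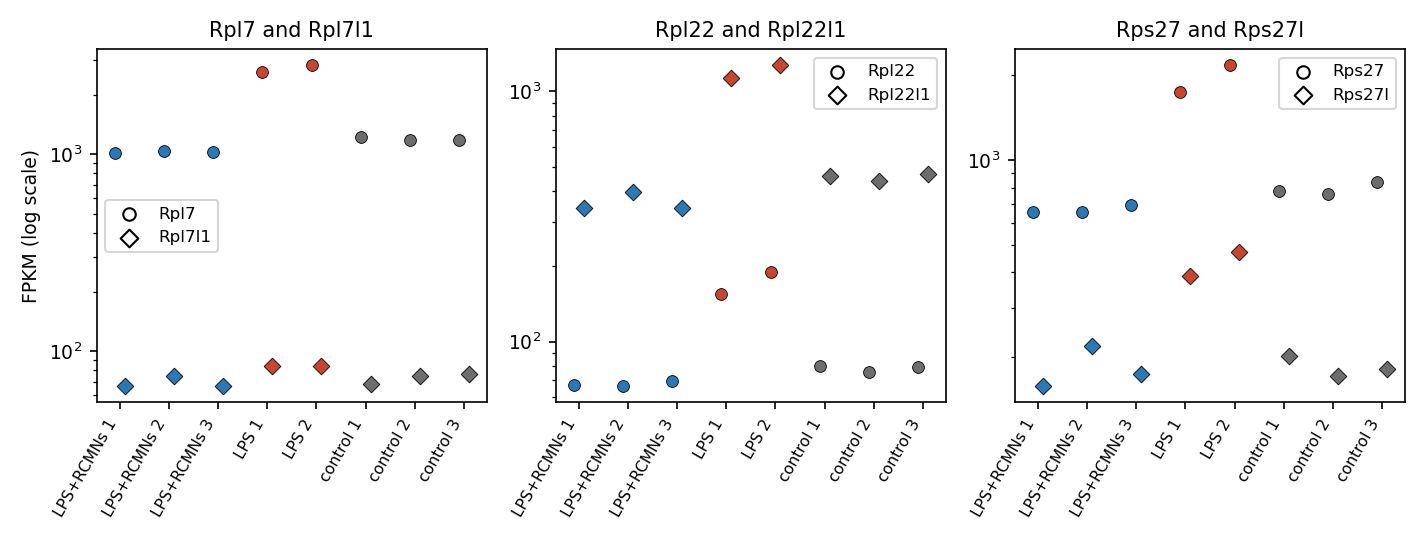
FPKM (log scale) of Rpl7 and Rpl7l1, Rpl22 and Rpl22l1, and Rps27 and Rps27l in each library (blue LPS+RCMNs, red LPS, grey control; circles and diamonds are the 2 genes of a pair). In LPS the distance between Rpl7 and Rpl7l1 widens, with Rpl7l1 at 2.99% and 3.24% of Rpl7.

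Genes that share the ribosome's work were set beside its proteins, from lists of known members. The 4 ribosomal proteins with other symbols, Fau, Rack1 and Rpl36al among them, all rose in LPS over control (median 1.90) and fell in LPS+RCMNs relative to LPS (median -1.91). With the length and level surface removed 0 of the 4 were called in LPS over control, and Rack1 stayed lower in LPS+RCMNs relative to LPS (-0.54), while Fau and Rpl36al (-0.10 each) were not called. Fau, which is made as a fusion with a ubiquitin-like protein, had 527, 531 and 532 FPKM in LPS+RCMNs, 1439 and 1613 FPKM in LPS and 597, 586 and 593 FPKM in control libraries. All 12 elongation factors and other known TOP messages rose in LPS over control (median 1.5), from 0.33 for Pabpc1 to 1.84 for Eef1d, and all 12 fell in LPS+RCMNs relative to LPS (median -1.49). On log2(TPM + 1) with limma 7 were higher and 1, Pabpc1, lower in LPS over control, where 8.56% of all tested genes were higher and 68.6% lower. Without the length and level trend, 6 were higher and 0 lower (median 0.31), and Pabpc1 (-0.17) was not called. Eef1a1, which delivers transfer RNA to the ribosome, had 6054, 5832 and 5939 FPKM in LPS+RCMNs, 10373 and 10356 FPKM in LPS and 7148, 6913 and 7067 FPKM in control libraries. Its log2 fold change, LPS over control, was 1.05, and -0.15 and not called with the length and level surface removed. Of 37 initiation factors, 30 were higher and 1 lower in LPS over control (median 1.01), and of 38 nucleolar assembly genes 27 were higher and 3 lower (median 0.81). On log2(TPM + 1) these counts were 12 higher and 12 lower for the initiation factors and 6 higher and 15 lower for the assembly genes (median -0.12), where 8.56% of all tested genes were called higher and 68.6% lower with a median of -0.79. Once the length and level surface was removed, 23 initiation factors were higher and 0 lower (median 0.37), and 18 assembly genes were higher and 2 lower (median 0.24), where 21.1% and 21.7% of all tested genes were. Ncl, a major nucleolar protein, rose by 1.08 ± 0.12 (SE, log2). On log2(TPM + 1) Ncl stood at 0.12 and was not called, and with the length and level surface removed it stood at 1.11 and was called. Polr1a, the largest subunit of RNA polymerase I, fell by 0.68 on the log2 scale. On log2(TPM + 1) Polr1a stood at -1.66 and was called, and with the length and level surface removed it stood at -0.10 and was not called.

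Short genes of other systems moved alike. Of 76 nuclear-encoded subunits of oxidative phosphorylation, with a median implied length of 665 bases, 75 were higher in LPS over control (median 1.55) and 76 lower in LPS+RCMNs relative to LPS (median -1.56). Of 78 mitochondrial ribosomal proteins 77 were higher (median 1.27) and 77 lower (median -1.21). In LPS+RCMNs over control these lists lay at -0.02 and 0.03, against -0.14 for the cytosolic ribosomal proteins. With the length and level surface removed, the oxidative phosphorylation list had 11 higher and 15 lower in LPS over control (median -0.04) and the mitochondrial ribosomal list 30 higher and 3 lower (median 0.24). Of all tested genes 21.1% were higher and 21.7% lower in that fit.

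Regulators of ribosome production had a median implied length of 4316 bases. Of 18, 5 were higher and 9 lower in LPS over control (median -0.52), where 31.4% and 32.1% of all tested genes were. With the length trend removed 4 were higher and 3 lower (median 0.10), where 24.9% and 20.9% of all tested genes were. With the length and level surface removed 3 were higher and 3 lower (median -0.03), where 21.1% and 21.7% of all tested genes were. Larp1, which binds TOP messages, had 84.7, 96.4 and 85.4 FPKM in LPS+RCMNs, 38.6 and 37.1 FPKM in LPS and 84.8, 87.5 and 89.7 FPKM in control libraries, with log2 fold changes of -0.71 ± 0.10 for LPS over control and 0.81 ± 0.10 for LPS+RCMNs over LPS (SE). Mtor fell by 0.61 on the log2 scale in LPS over control, and Rptor, its partner, by 1.10. With the length and level surface removed Larp1 was not called (-0.20), Rptor stayed lower (-0.38) and Mtor was higher (0.40). Myc, a transcription factor that drives ribosome production, had 1.93, 1.05 and 1.78 FPKM in LPS+RCMNs, 2.50 and 3.21 FPKM in LPS and 0.16, 0.82 and 0.61 FPKM in control libraries. Its log2 fold change was 2.90 ± 0.48 for LPS over control (SE, adjusted p = 0.000636), -1.26 ± 0.45 for LPS+RCMNs over LPS and 1.64 ± 0.46 for LPS+RCMNs over control (SE, adjusted p = 0.0645; 1.66 with adjusted p = 0.0489 after removal of the length and level surface, and 1.45 with adjusted p = 0.00105 without control replicate 1 and LPS+RCMNs replicate 2). On log2(TPM + 1) the LPS+RCMNs value over LPS was -0.30 and not called. The Myc levels of LPS+RCMNs and control libraries did not overlap, nor did those of LPS and control.

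Genes with and without the pyrimidine run had similar medians, given without a test. Among tested genes with a promoter in the table, 37 had a run near an annotated start, with a median log2 fold change of 1.78 in LPS over control, and 23 had none, with a median of 1.69. For LPS+RCMNs over LPS the medians were -1.89 and -1.87, and for LPS+RCMNs over control they were -0.13 and -0.15. A run of these letters in this window is not a measured start site.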

How the data were processed

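Per the file headers, the authors deposited 1 table with an estimated count (expected count), an FPKM and a TPM value per gene and library. The deposited estimated counts are not whole: of those above 0, 77.8% lay more than 0.001 from a whole number. The FPKM values the authors deposited are per kb of gene and M reads, and the deposited TPM values sum to the same total in every library. Per the submitters' processing notes the build is mm10, and per the series' design text reads were checked with FastQC. The sources used here name no aligner, counter or annotation. Libraries were made from oligo(dT)-selected RNA, per the labels' protocols. The description of each sample names its library code, which identified its columns; 12 per-sample columns were not used, 4 of them with a code that no sample carries.

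Counts were rounded to whole numbers. Genes passing filterByExpr were tested, after TMM scaling, by the quasi-likelihood test of edgeR 4.0.16 (limma 3.58.1, R 4.3.3) over all 8 libraries in 3 groups, with calls at a Benjamini-Hochberg adjusted p below 0.05 over 11911 genes. The LPS libraries had TMM factors of 0.779 and 0.803, and the remaining 6 had 1.05 to 1.13. CPM is per M of scaled library size. Intervals of shares cover counting error only. Implied gene length is the length that the deposited counts and FPKM give. Trends on length, and surfaces on length and mean level, were removed per library by loess with a span of 0.4. The error of these fits did not enter the tests. Alternatives were each library left out, the replicate number as a block, other filters and scalings, DESeq2 1.42.0, limma on log2(FPKM + 1) and log2(FPKM + 0.1), and, added after seeing the data, limma on log2(TPM + 1).

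The members, lists and tests were chosen with earlier results of these data known, so no list was tested as a list. Named genes are 13 members of known role, both genes of 7 paralog pairs, and per comparison the 3 highest and 3 lowest tested members; some genes are not reported here. Other genes named (Rps2, Rps3a1, Rps10, Rps18, Rpl35, Rps15a, Rps29, Rpl31, those that stayed called after the length and level surface was removed, and members of the comparison lists) were chosen after their values were seen. Coordinates and promoter sequences are from RefSeq GRCm38.p6.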

Additional observations from a re-analysis of the deposited data

How the results depend on the processing

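All values here are log2 fold changes, medians of tested ribosomal protein genes or counts of them called. Leaving out each library in turn gave 79 to 80 genes called higher and 0 lower for LPS versus control (median 1.75 to 1.84), 79 to 80 lower and 0 higher for LPS+RCMNs versus LPS (median -1.96 to -1.88) and 0 to 1 lower and 0 higher for LPS+RCMNs versus control (median -0.14 to -0.11). For LPS+RCMNs versus control these fits put Rpl23 at -0.07 to 0.17 and Rps27l at -0.05 to 0.16. Where an LPS library is left out, the lone one is assumed to vary like the other groups.

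Whether replicate numbers pair the samples cannot be told from so few libraries per group. The correlation of deviations between same-numbered libraries was -0.28, -0.34 and 0.2 for LPS+RCMNs versus control, 0.19 and 0.14 for LPS versus control and -0.11 and -0.14 for LPS+RCMNs versus LPS. With the replicate block, 80 were higher for LPS versus control, 79 lower for LPS+RCMNs versus LPS and 0 called for LPS+RCMNs versus control, with medians of 1.76, -1.9 and -0.14.

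For LPS versus control, TMM computed without the ribosomal protein genes gave a median of 1.81, limma on log2(FPKM + 1) and on log2(FPKM + 0.1) 1.26 each, and limma on log2(TPM + 1) 0.76 with 1 gene lower, Rpl7l1 at -0.3. Removing the length trend gave 0.42, with Rpl39 at -0.04, Rplp2 at -0.03 and Rps27 at -0.26. Removing the length and level surface fitted on all genes gave 19 higher and 15 lower, where 21.1% and 21.7% of all tested genes were. The median was then -0.0018, with Rpl10 at -0.19, Rpl22l1 at -0.11, Rpl39 at -0.31, Rpl5 at -0.13, Rplp1 at -0.15, Rplp2 at -0.39, Rps27 at -0.56, Rps27a at -0.07, Rps27l at -0.17 and Rps4x at -0.05. Removing the surface fitted on other genes only gave 17 higher and 18 lower, where 21.1% and 21.7% of all tested genes were. The median was then -0.04, with Rpl10 at -0.22, Rpl22l1 at -0.16, Rpl36 at -0.04, Rpl39 at -0.36, Rpl41 at -0.02, Rpl5 at -0.14, Rplp1 at -0.21, Rplp2 at -0.45, Rps27 at -0.63, Rps27a at -0.11, Rps27l at -0.21 and Rps4x at -0.07.

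For LPS+RCMNs versus LPS, limma gave a median of -1.47 with either FPKM pseudocount and -0.97 on TPM, with 1 gene higher, Rpl7l1 at 0.21. Removing the length trend gave -0.55, with Rpl39 at 0.05, Rps27 at 0.09 and Rps27l at 0.02. The surface of all genes gave 39 lower and 1 higher, where 19.9% and 18.8% of all tested genes were. The median was -0.21, with Rpl39 at 0.23, Rplp2 at 0.19, Rps27 at 0.3 and Rps27l at 0.13. The surface of other genes gave 44 lower and -0.28, with Rpl39 at 0.18, Rplp2 at 0.11, Rps27 at 0.24 and Rps27l at 0.11.

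For LPS+RCMNs versus control, 18 were lower when both libraries that differed from their groups (control replicate 1, LPS+RCMNs replicate 2) were left out, and 7 with DESeq2. Limma gave 7 lower at a pseudocount of 1 and 3 at 0.1, where 4.74% and 4.16% of all tested genes were lower. The median was -0.21 in each, with Rpl23 at -0.04 and Rps27l at -0.02 in both. On TPM limma gave 15 lower, where 5.66% of all tested genes were (median -0.22, Rpl23 at -0.05 and Rps27l at -0.03). The surface of all genes gave 23 lower and -0.24 (Rpl23 and Rps27l at -0.04), and that of other genes 55 lower and -0.36 (Rpl23 at -0.07 and Rps27l at -0.1). The cause of these differences was not tested. Sampling noise is not the limit for the tested genes other than Rpl3l, which held 612 to 119468 counts per library.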
